A study of Mus musculus with 6 samples.

Results

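The genes described here are transcriptional readouts of bone morphogenetic protein (BMP) signalling: the Id genes Id1, Id2, Id3 and Id4, the inhibitory Smads Smad6 and Smad7, the receptor-regulated Smad9, the decoy receptor Bambi, and the homeobox genes Msx1 and Msx2. They were taken as all probe sets whose platform annotation names one of these genes and no other. All 10 genes had such a probe set, 17 of 45037 probe sets in all after controls were left out, and 10 of the 18193 genes that could be named. RNA from sorted cells of mouse embryos at embryonic day 9, labelled as cardiac progenitors, was measured on 6 Affymetrix arrays, 3 of mutant and 3 of wild-type cells. Mutant cells were yellow fluorescent (YFP) cells from embryos with Isl1-cre, Rosa-YFP and Beta-catenin (loxP ex3), an allele from which Cre removes exon 3 and which then makes a stabilised protein, and wild-type cells were YFP+ cells without the stabilised form. The labels spell out the mutant genotype only. The sort takes every cell in which Isl1-driven Cre has acted, and its descendants, so that cells outside the heart field can be among them, and how many embryos were pooled is not stated.

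BMP ligands act through pairs of receptor kinases that phosphorylate Smad1, Smad5 and Smad9, which enter the nucleus with Smad4. The Id genes are among the most direct targets of these complexes. Smad6, Smad7 and Bambi are induced as feedback inhibitors, and the Msx genes are induced in many embryonic tissues that receive BMP, neural crest and surface ectoderm among them. In the early heart, BMP signals favour differentiation of progenitors of the Isl1 lineage, and canonical Wnt signals, which act through β-catenin, can also raise Msx and some Id genes.

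The readouts were not called between mutant and wild-type cells, and their differences went in more than one direction. With limma, a linear model with a moderated estimate of the spread, and an adjusted p under 0.05 over all genes (Benjamini-Hochberg), 0 of the 10 genes were called, beside 0.066% of all genes called higher and 0% called lower. Values were higher in mutant cells for 8 of the 10, beside 44.7% of all genes, and lower for Id4 and Smad9, with a median difference of 0.31 on the log2 scale, while the median of all genes was −0.03. Msx2 was the member with the smallest p, at a difference of 0.83 (1.78-fold). At an unadjusted p under 0.05 limma found 3 members higher (Id2, Msx1 and Msx2) and 0 lower, where 6.76% of all genes were higher and 4.84% lower. All 3 mutant arrays lay above all 3 wild-type arrays for Id2, Bambi and Msx2, which is 3 members of 10, beside 8.64% of all genes, and below them for 0 members, beside 9.18%. Of the 17 probe sets limma called 0, and 0% of all probe sets. Of the 17, 4 were higher and 1 was lower where no adjustment was made (p under 0.05), beside 6.1% and 4.66% of all, 5 lay above and 1 below without overlap, beside 8.01% and 8.86%, and 13 had higher values, beside 45.3%. In bulk samples such as these, fewer cells of a type and less RNA per cell cannot be told apart.

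Facts of the whole series bear on these values. The arrays had medians of 6.47 to 6.50 on the log2 scale and correlated at 0.983 to 0.985 within mutant, at 0.983 to 0.987 within wild type and at 0.977 to 0.985 between the groups. Ctnnb1, the gene that carries the allele, read 12.97 ± 0.04 in mutant and 12.98 ± 0.03 in wild-type cells (log2, mean ± SD, n = 3 each), and its probe sets are not known here to lie in the deleted exon, so this level checks no genotype. Isl1 read 8.72, 8.61 and 7.49 in mutant cells and 9.24, 9.36 and 9.77 in wild-type cells (limma adjusted p = 0.269), and Nkx2-5, which defines early heart cells, had means at or below background in both groups. Y-linked Kdm5d was present on all 3 mutant arrays (8.67 to 9.92) and on wild-type array 1 (9.84), and read 2.82 and 3.52 on the other wild-type arrays. Xist, which marks female cells, read 12.13, 7.54 and 12.44 on mutant arrays 1, 2 and 3, and 5.46, 12.63 and 12.79 on the wild-type arrays. Mutant arrays 1 and 3 thus carried both signals at high values. On mutant array 2 and wild-type array 1 Xist was lower, but above the background of 4.85. Y-linked signal therefore does not stand for the sex of an array. Of 11 canonical Wnt targets, 11 had higher values in mutant cells and 1, Apcdd1, was called (median 0.64). That call was lost with the replicate block and without mutant replicate 2, mutant replicate 3 or wild-type replicate 2, where limma called 0 genes higher. Whether Apcdd1 kept its call in the other settings is not given here. The labels do not tie samples to cultures or animals. Each p therefore covers the spread between the samples as given, which may be in part technical. The sex-linked values set wild-type array 1 apart from the other wild-type arrays, so it is no technical repeat of them. A level of 4.85, taken from bacterial control probe sets, served as the background, and no gene was left out for a low value.

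**Figure D1:**
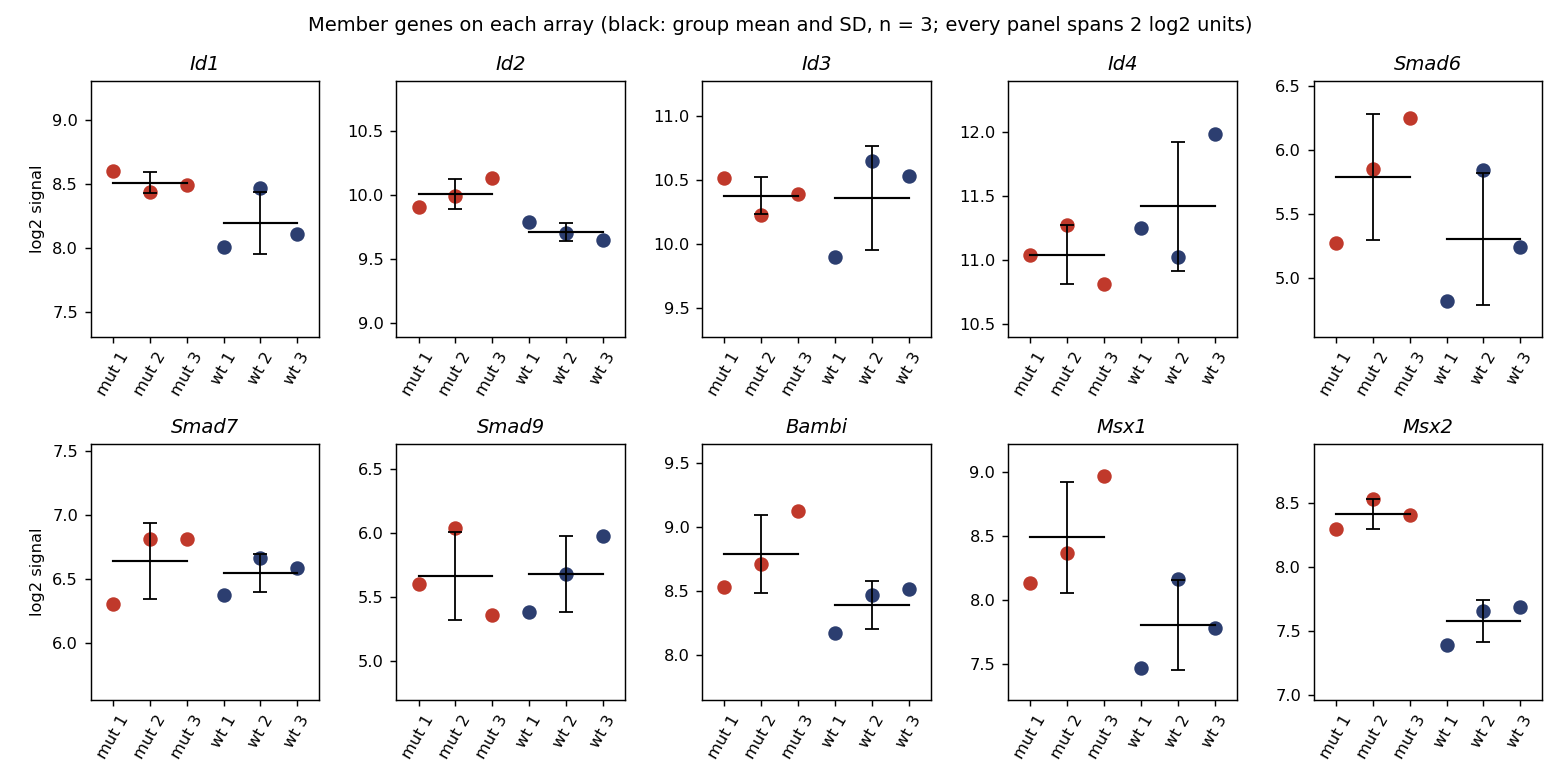
The log2 signal (vertical axes, every panel spanning the same range) of each member gene on the 3 mutant arrays (red, left) and the 3 wild-type arrays (blue, right), with black lines for the group mean and SD. The arrays of the groups are apart for Id2, Bambi and Msx2 and overlap for the other 7 genes, and wild-type array 1 is the lowest of all for 6 genes.

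Id proteins are helix-loop-helix proteins without a DNA-binding basic region. They bind E proteins such as Tcf3 and Tcf12 and keep them from activating lineage genes. Among them Id1, Id2 and Id3 had higher mean values in mutant cells and Id4 a lower one. Id1 read 8.60, 8.44 and 8.50 in mutant cells, against 8.01, 8.47 and 8.11 in wild-type cells. Wild-type array 2 lay inside the mutant range, so the groups overlapped by 1 array. The difference was 0.32 with a standard error (SE) of 0.15 and a 95% interval from −0.04 to 0.68 (limma adjusted p = 0.479).

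Id2 is measured by 3 probe sets. The brightest read 9.90, 9.99 and 10.13 in mutant cells, against 9.79, 9.70 and 9.64 in wild-type cells. The groups did not overlap, though the nearest arrays were only 0.12 apart. The difference was 0.30 (SE 0.12, adjusted p = 0.421), which is 1.23-fold, and the spread within groups was small, smaller than for all but 10.4% of genes. A dim Id2 probe set (1453596_at) read 5.55, 5.97 and 5.79 in mutant cells, against 5.25, 4.91 and 4.53 in wild-type cells. There the groups were further apart, the wild-type mean of 4.90 lay near the background, and the difference was 0.87 (SE 0.21, adjusted p = 0.279 over all probe sets). The third (1422537_a_at) read 9.53, 8.85 and 9.24 in mutant cells, against 8.50, 9.23 and 8.79 in wild-type cells, and the groups overlapped. The dim probe set differed from the brightest by 0.57 more between the groups, and no array of one group overlapped the other (exact permutation test, two-sided, p = 0.1, the smallest that 3 against 3 arrays can give). Adjusted over the 6 such contrasts between probe sets or members, that p was 0.3.

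Id3 was level between the groups on average. It read 10.51, 10.23 and 10.39 in mutant cells, against 9.90, 10.65 and 10.53 in wild-type cells. Wild-type array 1 was the lowest and the other wild-type arrays the highest of the 6, so the mutant arrays lay between them. The difference was 0.02 (SE 0.21), and its 95% interval, −0.48 to 0.51, leaves room for changes of either sign (adjusted p = 0.980). Without wild-type replicate 1 it was −0.21. The wild-type SD of 0.40 was above that of 89.3% of genes.

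Id4 is measured by 3 probe sets that share one reference accession and are therefore not independent. The brightest read 11.04, 11.27 and 10.81 in mutant cells, against 11.25, 11.02 and 11.98 in wild-type cells. The groups overlapped, and wild-type array 3 stood alone at the top. The difference was −0.38 (SE 0.26, adjusted p = 0.594), and ran from −0.58 without wild-type replicate 2 to −0.09 without wild-type replicate 3. A second probe set (1423259_at) read 7.07, 6.95 and 6.68 in mutant cells, against 7.28, 7.16 and 7.44 in wild-type cells. Here all mutant arrays lay below all wild-type arrays, by a gap of 0.09, with a difference of −0.39 (SE 0.16, adjusted p = 0.443 over all probe sets). The third (1450928_at) gave −0.23 (SE 0.26) with overlapping groups. The mean of 12 neuronal markers, set against wild type, was 0.14, −1.05 and −0.75 on mutant arrays 1, 2 and 3, against −0.33, −0.31 and 0.64 on the wild-type arrays. That mean too was highest on wild-type array 3, but among the mutant arrays it was lowest on array 2, where Id4 was highest. The summed signal of these markers was 11.79 to 12.95 (log2) in mutant cells and 12.39 to 13.39 in wild-type cells, and none was below background on all arrays. Their part in the Id4 values was not tested. The mean of Id1, Id2 and Id3 less Id4 was 0.59 higher in mutant cells than in wild-type cells, with overlapping arrays. Its exact permutation test (two-sided) gave p = 0.2, and p = 0.3 when adjusted over 6 contrasts. With 3 against 3 arrays this test cannot give a p under 0.1, so it could not decide whether Id4 and the other Id genes respond differently.

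Id2 and Id4 are shown here by the 250 bases before their start sites because the Id2 value was higher and the Id4 value lower in mutant cells. The bases come from RefSeq on GRCm38.p6, read 5′ to 3′ on the gene's strand, which is the minus strand for Id2 (chr12:25096093-25096342) and the plus strand for Id4 (chr13:48260866-48261115). Capitals mark GGCGCC, a palindrome bound by BMP-activated Smads in known response elements, which reads alike on both strands.
Id2: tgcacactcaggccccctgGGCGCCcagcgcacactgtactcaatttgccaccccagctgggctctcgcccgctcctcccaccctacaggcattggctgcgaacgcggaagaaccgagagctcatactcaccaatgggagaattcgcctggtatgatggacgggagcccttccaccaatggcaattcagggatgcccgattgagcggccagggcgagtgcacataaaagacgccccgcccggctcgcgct
Id4: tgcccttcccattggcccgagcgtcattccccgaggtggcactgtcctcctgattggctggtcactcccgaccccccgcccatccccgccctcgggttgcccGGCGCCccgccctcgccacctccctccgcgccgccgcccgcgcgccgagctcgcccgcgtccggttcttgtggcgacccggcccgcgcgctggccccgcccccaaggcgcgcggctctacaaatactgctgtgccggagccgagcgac
Each of the 2 windows held 1 such match, 231 bases before the start in Id2 and 148 in Id4, and 9.59% of 32851 promoter windows of the same length hold one. The same letters were 51 bases before the start of Smad9 and were not in the windows of Id3, Smad6, Msx1 and Msx2. The shorter Smad-binding letters GTCT, on either strand, are in 82.9% of all windows and occurred in Id2, Id3, Smad6, Smad9 and Msx2. A match describes letters only.

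None of the feedback genes was called, and of these genes and Smad9, Bambi alone had groups that did not overlap on the brightest probe set. Smad6 binds receptors and Smad1 and restrains BMP signals, and it is also known as an endothelial gene. It read 5.27, 5.85 and 6.25 in mutant cells, against 4.82, 5.84 and 5.24 in wild-type cells. Both groups were spread widely, and wild-type array 2 was level with mutant array 2. The difference was 0.49 (SE 0.32, 95% interval −0.26 to 1.23, adjusted p = 0.578), and the spread within groups exceeded that of 94.3% of genes. With each array left out it ran from 0.25 without wild-type replicate 1 to 0.76 without wild-type replicate 2.

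Smad7 restrains both BMP and TGF-β signals. Its brighter probe set read 6.30, 6.81 and 6.81 in mutant cells, against 6.38, 6.67 and 6.59 in wild-type cells. Mutant array 1 was the lowest of the 6 and the other mutant arrays the highest. The difference was 0.10 (SE 0.18, 95% interval −0.32 to 0.51, adjusted p = 0.852). It was 0.27 without mutant replicate 1, and 0.01 without mutant replicate 2, without mutant replicate 3 or without wild-type replicate 1. The other probe set (1443771_x_at), of the class whose probes can also bind other transcripts, read 6.53, 6.65 and 6.50 in mutant cells, against 6.08, 6.21 and 6.15 in wild-type cells. All its mutant arrays were above all its wild-type arrays, with a difference of 0.41 (SE 0.12, unadjusted p = 0.0114, adjusted p = 0.346 over all probe sets by limma). The probe sets disagreed in size, by 0.32 between the groups, and the arrays of that contrast overlapped (exact permutation p = 0.2, two-sided).

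Smad9, which carries BMP signals from receptors and is itself induced by them, read 5.60, 6.04 and 5.36 in mutant cells, against 5.39, 5.68 and 5.98 in wild-type cells. The arrays of the groups were interleaved. The difference was −0.02 (SE 0.22, 95% interval −0.53 to 0.50, adjusted p = 0.984). Its sign turned with the array left out: it was −0.20 without mutant replicate 2 and 0.14 without mutant replicate 3.

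Bambi, a transmembrane protein that resembles a type I receptor but lacks the kinase, read 8.54, 8.71 and 9.13 in mutant cells, against 8.18, 8.47 and 8.52 in wild-type cells. The mutant arrays were all higher, but the lowest of them was only 0.01 above the highest wild-type array. The difference was 0.40 (SE 0.19, 95% interval −0.03 to 0.83, adjusted p = 0.464), or 1.32-fold, and ran from 0.23 without mutant replicate 3 to 0.53 without mutant replicate 1. Bambi is also known as a target of β-catenin.

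**Figure D2:**
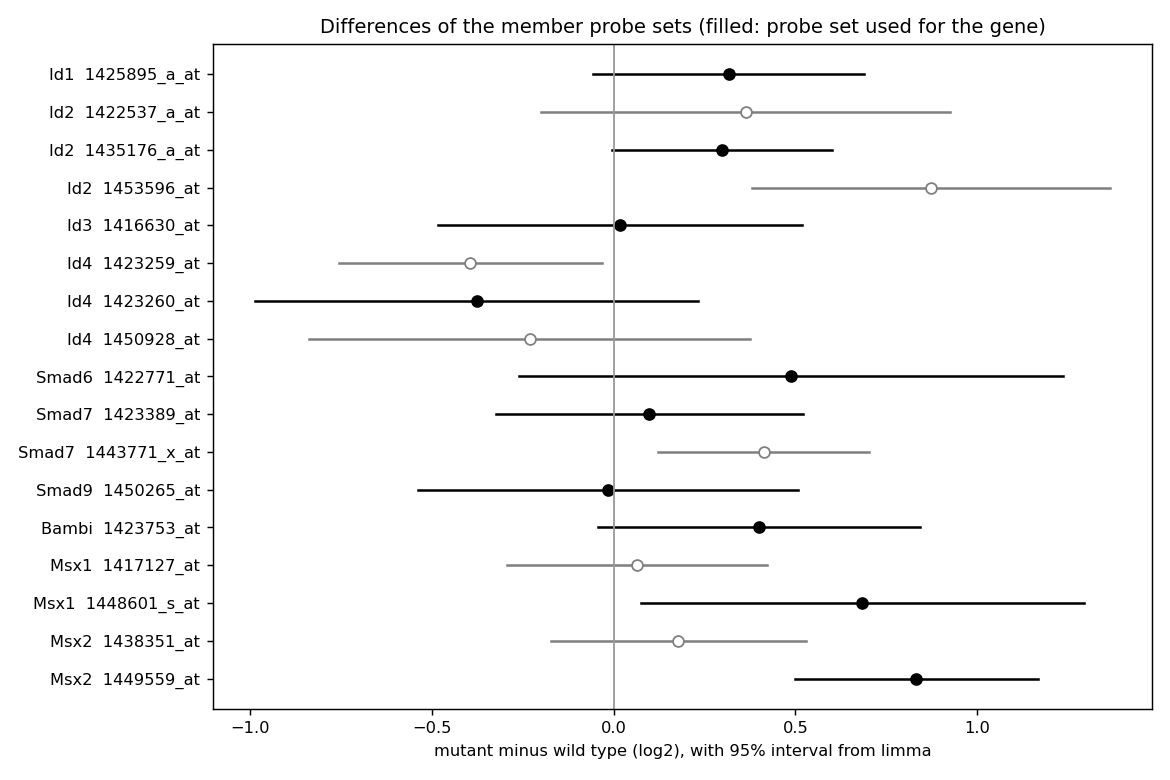
Mutant minus wild type (log2, horizontal axis) for each of the 17 member probe sets, with the 95% interval from limma; filled points are the probe sets that stood for the gene. The intervals of 1 Msx2, 1 Msx1, 1 Smad7 and 1 Id2 probe set lie above 0, that of 1 Id4 probe set lies below 0, and the other 12 include 0; no adjusted p was under 0.05.

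The Msx genes encode homeobox repressors of neural crest, limb and epithelial tissues and had the largest differences of the 10 genes on their brightest probe sets. The brighter Msx2 probe set read 8.30, 8.53 and 8.41 in mutant cells, against 7.39, 7.65 and 7.69 in wild-type cells. The lowest mutant array was 0.61 above the highest wild-type array. The difference was 0.83 (SE 0.14, 95% interval 0.51 to 1.15), with an unadjusted p of 0.000409 and an adjusted p of 0.133 by limma, and it ranked 56 of all genes by p. It ran from 0.74 to 0.89 with each array left out. The unadjusted p of Msx2 stayed under 0.05 in all 15 alternatives, and the smallest adjusted p among them was 0.0891, without mutant replicate 1. The other Msx2 probe set (1438351_at) read 3.40 to 3.68 in mutant cells and 3.21 to 3.55 in wild-type cells, below the background on every array, and gives no level.

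Msx1 read 8.13, 8.36 and 8.97 in mutant cells, against 7.47, 8.17 and 7.78 in wild-type cells on its brighter probe set (1448601_s_at), of the class shared between similar transcripts. Mutant array 3 was far above the rest, and mutant array 1 lay just below wild-type array 2. The difference was 0.68 (SE 0.26, 95% interval 0.08 to 1.29, adjusted p = 0.390), and 0.44 without mutant replicate 3. The dimmer Msx1 probe set (1417127_at), which has the same reference accession, read 7.18, 7.25 and 7.39 in mutant cells, against 6.98, 7.25 and 7.40 in wild-type cells. Those groups overlapped almost in full, with a difference of 0.06 (SE 0.15, adjusted p = 0.900 over all probe sets). The brighter probe set exceeded the dimmer by 0.62 more in mutant cells, with no array of one group overlapping the other (exact permutation test, two-sided, p = 0.1; adjusted over 6 contrasts, p = 0.3). The Msx1 difference therefore rests on 1 of its 2 probe sets. Msx2 and Msx1 differed in their changes by 0.15, with overlapping arrays (exact permutation p = 0.6, two-sided).

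The windows of 250 bases before the Msx start sites are shown because these genes had the largest differences on their brightest probe sets. They are from RefSeq on GRCm38.p6, both on the minus strand, at chr13:53472781-53473030 for Msx2 and chr5:37824586-37824835 for Msx1, and capitals mark TAATTA, a core bound by many homeodomain proteins, searched on both strands.
Msx2: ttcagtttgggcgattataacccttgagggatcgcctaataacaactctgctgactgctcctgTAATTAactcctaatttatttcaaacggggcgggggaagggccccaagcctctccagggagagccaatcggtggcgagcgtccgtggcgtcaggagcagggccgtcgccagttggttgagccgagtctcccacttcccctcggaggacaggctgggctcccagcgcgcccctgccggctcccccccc
Msx1: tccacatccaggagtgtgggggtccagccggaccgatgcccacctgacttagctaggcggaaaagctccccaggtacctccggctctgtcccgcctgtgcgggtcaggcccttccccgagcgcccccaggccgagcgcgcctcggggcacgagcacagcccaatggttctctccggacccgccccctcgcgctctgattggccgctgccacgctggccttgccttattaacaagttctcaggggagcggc
Msx2 held 1 match, 187 bases before the start, where 4.84% of all windows hold one, and none of the other member windows held it. The TCF/LEF core, searched as CTTTG followed by AA, AT, TA or TT on either strand, are in 14.8% of all windows and were in none of the 7 member windows in the table used here (Id2, Id3, Id4, Smad6, Smad9, Msx1 and Msx2). That says only that these letters are not in these windows.

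Markers of tissues known to express Msx genes were also higher on the mutant arrays. The mean of Msx1 and Msx2, set against wild type, was 0.52, 0.75 and 0.997 on mutant arrays 1, 2 and 3, against −0.26, 0.22 and 0.04 on the wild-type arrays. The mean of 11 neural crest markers was 0.44, 0.31 and 0.56 on the mutant arrays, against 0.09, −0.12 and 0.03. Of these markers 8 had higher values and none was called, with an unadjusted p under 0.05 by limma for 7 higher and 0 lower, with Snai2, Tfap2b and Sox10 at the smallest p. Their summed signal was 12.65 to 12.81 (log2) in mutant cells and 12.14 to 12.25 in wild-type cells. The mean of 12 surface ectoderm markers was 0.34, 0.63 and 1.16 on the mutant arrays, against −0.07, 0.27 and −0.20. Of these, 11 were higher and none was called (unadjusted p under 0.05 for 5 higher and 0 lower), with Krt19, Grhl3 and Cdh3 at the smallest p, and their summed signal was 12.82 to 13.73 in mutant cells and 12.21 to 12.82 in wild-type cells. The Msx, neural crest and surface ectoderm means were all highest on mutant array 3. They were lowest on different arrays: the Msx mean on wild-type array 1, the neural crest mean on array 2 and the surface ectoderm mean on array 3. No marker of either list was below background on all arrays, and their part in the Msx values was not tested.

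Endothelial cells express Id1, Id3, Smad6 and Smad7, and endothelial markers were also higher. The mean of 12 of them was 0.66, 1.02 and 0.95 on mutant arrays 1, 2 and 3, against 0.10, 0.33 and −0.43 on the wild-type arrays. All 12 had higher values and none was called (unadjusted p under 0.05 by limma for 9 higher and 0 lower), led by Sox17, Flt1 and Sox18, and their summed signal was 11.83 to 12.26 in mutant cells and 10.95 to 11.65 in wild-type cells. The mean of Smad6, Smad7, Smad9 and Bambi was −0.05, 0.37 and 0.41 on the mutant arrays, against −0.29, 0.19 and 0.10. Mutant array 1 was the lowest mutant array, and wild-type array 2 the highest wild-type array, in both lists. Other ranks differed. The endothelial mean was highest on mutant array 2 and lowest on wild-type array 3. The mean of the Smad genes and Bambi was highest on mutant array 3 and lowest on wild-type array 1. The mean of Id1, Id2 and Id3 was 0.25, 0.13 and 0.25 on the mutant arrays, against −0.19, 0.18 and 0.01. No endothelial marker was below background on all arrays, and the part of endothelial cells in these values was not tested.

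**Figure D3:**
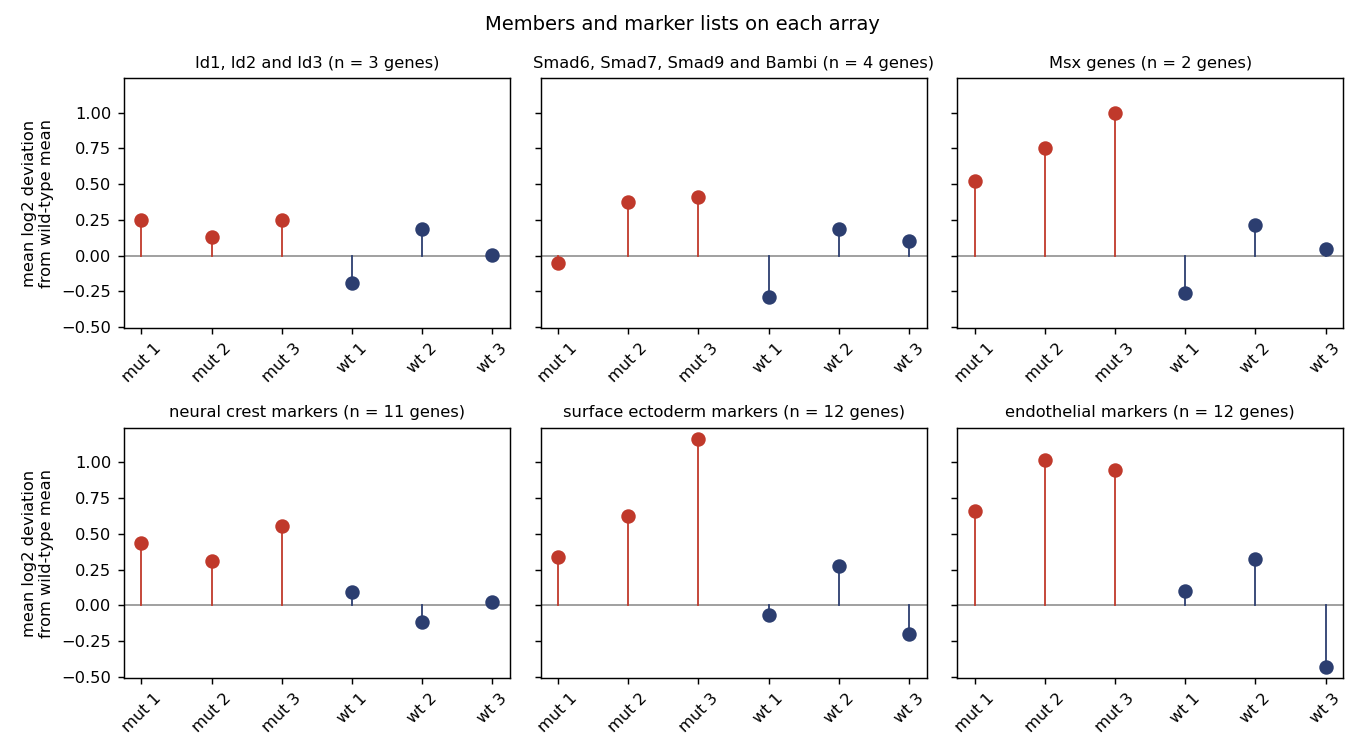
Mean log2 deviation from the wild-type mean (vertical axis) on each mutant array (red, left) and wild-type array (blue, right), for 3 groups of members and 3 marker lists. The Msx, neural crest, surface ectoderm and endothelial means are higher on every mutant array than on every wild-type array, and the means of Id1 to Id3 and of the Smad and Bambi genes overlap.

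Wild-type array 1 was the lowest of the 6 arrays for 6 of the 10 members (Id1, Id3, Smad6, Bambi, Msx1 and Msx2), where 17.6% of all genes were lowest on that array. It was the lowest for 10 of the 17 member probe sets, where 16.4% of all probe sets were. Mutant array 3 was the highest for 4 members and mutant array 2 for 3, and no member was highest on wild-type array 1. The mean over all members was 0.12, 0.32 and 0.38 on mutant arrays 1, 2 and 3, against −0.24, 0.13 and 0.11 on the wild-type arrays, so that mutant array 1 and wild-type array 2 were level. Wild-type array 1 is also the only wild-type array with Y-linked signal. A covariate of such genes therefore sets the mutant arrays largely against that array. With the mean of Kdm5d, Eif2s3y and Uty as a covariate, Id3 stood at 0.42, against 0.02 without it, Smad6 at 0.87, Id1 at 0.49 and Smad9 at 0.18, and the median over the members was 0.45. Under that covariate 0 members were called, and 5 (Bambi, Id1, Id3, Msx1 and Msx2) had higher values at an unadjusted p under 0.05, beside 5.39% of all genes. The mean of 8 visceral endoderm markers was −1.65, −0.26 and 0.16 on mutant arrays 1, 2 and 3, against −1.24, 0.87 and 0.37 on the wild-type arrays. The part of visceral endoderm cells in the member values was not tested.

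The count of members higher at an unadjusted p under 0.05 moved with several arrays. It was 1 member (Msx2) instead of 3 when mutant replicate 3 was left out, beside 5.03% of all genes, and likewise for wild-type replicate 1 (6.09%) and wild-type replicate 3 (5.82%). It was 2 without mutant replicate 2 (5.21%) and 4 without wild-type replicate 2 (5.58%). Leaving out mutant replicate 1 gave 5 (7.81%). With 5 arrays groups separate more often: all mutant arrays lay above for 6 members without mutant replicate 1, beside 14.9% of all genes, and for 6 without wild-type replicate 2, beside 12.8%. They lay above for 3 members without wild-type replicate 1, beside 13% of all genes, and below for 1 (Id3), beside 16.5%. The median over the members was 0.23 without wild-type replicate 1 and 0.37 without wild-type replicate 2. These counts were added after seeing the data.

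**Figure D4:**
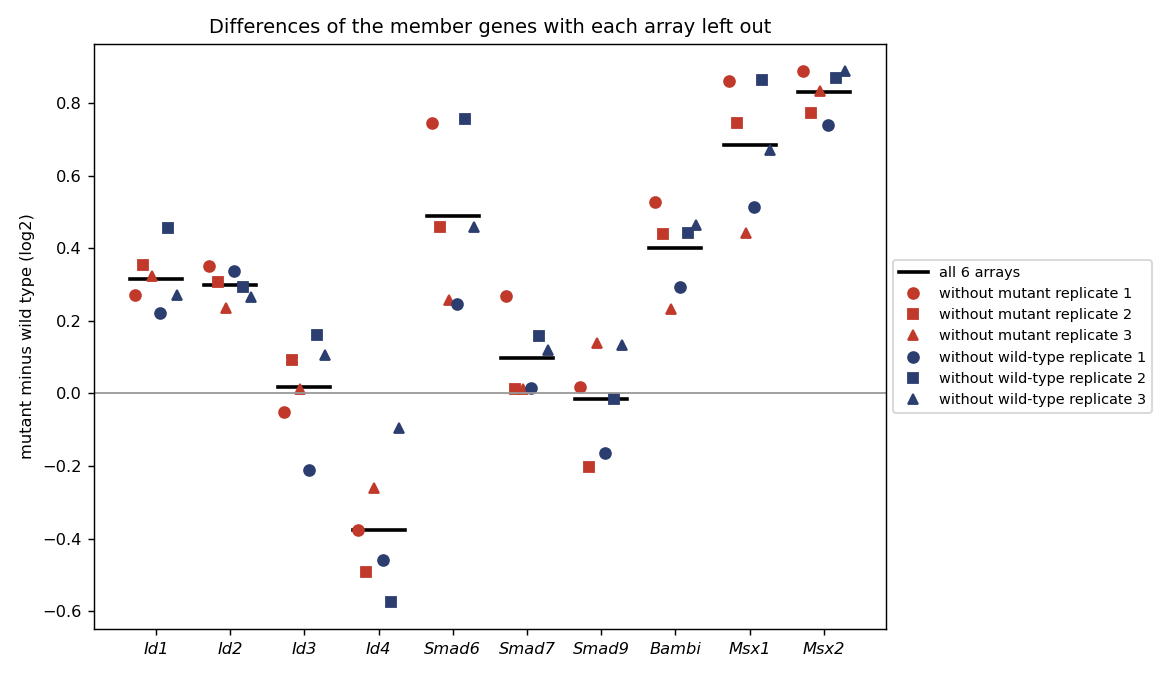
Mutant minus wild type (log2, vertical axis) of the 10 member genes with all arrays (black bars) and with each mutant (red) or wild-type (blue) array left out. Msx2 runs from 0.74 to 0.89, Id3 and Smad9 cross 0, and Id4 runs from −0.58 to −0.09.

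The rest of the pathway was read from lists of ligands, receptors, Smads and antagonists. Of 8 ligands, BMPs and their relatives with the activin subunit Inhba among them, none was called and 7 had higher values (median 0.29). Bmp10 and Inhba, both counted as higher, had means at or below background in both groups. Bmp2, which induces myocardium and cushions, read 5.87, 7.04 and 7.24 in mutant cells, against 5.26, 5.46 and 5.40 in wild-type cells (difference 1.35, SE 0.33, adjusted p = 0.232), with mutant arrays 2 and 3 far above mutant array 1. Bmp4 stood at 0.84 and Gdf2 at −0.26. Of 13 secreted antagonists none was called and 10 had higher values (median 0.20). Sostdc1 stood at 1.53, Fst, which binds activin and BMP, at 0.90, and Cer1 at −0.29. Cer1 was below background on every array, as were Nog and Bmper, which are counted among the higher.

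Of 15 receptors 10 had higher values, none was called, and the median was 0.05. Tgfbr2, the TGF-β type II receptor, stood at 0.88 (SE 0.18, adjusted p = 0.188; its 3 probe sets ran from −0.05 to 0.88), Acvrl1, of endothelium, at 0.56, and Acvr2a at 0.37 (its probe sets ran from −0.07 to 0.37). Of 15 other Smads and regulators 11 had higher values, none was called, and the median was 0.09, with Tob1 at 0.50 (its probe sets ran from −0.05 to 0.50), the corepressor Tgif1 at 0.35 and the ubiquitin ligase Smurf1, which marks BMP Smads for breakdown, at 0.27. The partners of the Id proteins, E proteins and other basic helix-loop-helix factors, had a median of −0.03 over 12 genes, with none called. Tal1 stood at −0.94, Tcf4 at 0.24 (its 6 probe sets ran from −0.06 to 0.24) and Hand2 at −0.29.

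Other genes known to respond to BMP had values in both directions. Of 16 measured, 7 had higher and 9 lower values, and none was called. The median was −0.15, while the median of the 10 members was 0.31, and that gap was not tested. Hamp, Nkx3-2 and Nkx2-5, counted among the lower, had means at or below background in both groups. Tbx20, a T-box factor of heart muscle, read 8.06, 8.62 and 8.04 in mutant cells, against 9.30, 8.85 and 9.40 in wild-type cells (difference −0.94, SE 0.22, adjusted p = 0.220). Its mutant arrays all lay lower. Evx1, of posterior mesoderm, stood at 1.45 (adjusted p = 0.237), and Nkx2-5 at −0.46. Of 12 TGF-β and activin response genes 5 had higher values, none was called, and the median was −0.07, with Ccn2 at 0.96, the matrix protein Tgfbi at 1.37 and Lefty1 at −0.29. Of the canonical Wnt targets, Apcdd1 stood at 1.82, Dkk1 at 1.31 and Sp5 at 1.23 (adjusted p = 0.0371 for Apcdd1). At an unadjusted p under 0.05, limma found 10 of the 11 Wnt targets higher and 0 lower, 3 and 0 of the receptors, 1 and 0 of the Smads and regulators, 1 and 0 of the ligands, 2 and 0 of the antagonists, 0 and 1 of the Id partners, 1 and 3 of the other BMP response genes, and 2 and 0 of the TGF-β response genes.

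**Figure D5:**
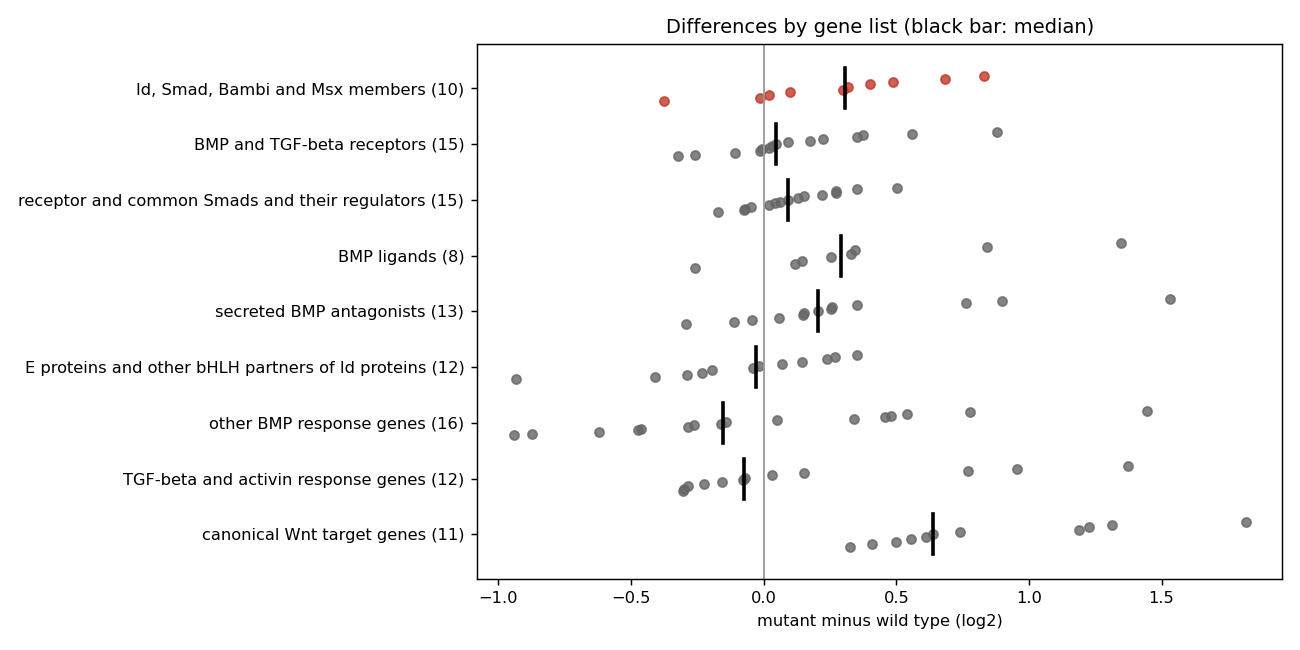
Mutant minus wild type (log2, horizontal axis) for the members (red, top) and for the genes of 8 other lists (grey), 1 point per gene and a black bar at each median, with the number of genes measured in brackets. The median is 0.31 for the members, 0.64 for canonical Wnt targets and −0.15 for other BMP response genes.

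Msx2 had the smallest p of the members, and the genes whose values over the 6 arrays were most like it, by Pearson's r among 14125 genes above background, were Myh10 (r = 0.996), Adm (0.993) and Fmo1 (0.992). The 6 points fall into the groups compared, so r largely restates the gap between them, and no p is given. Myh10, a non-muscle myosin heavy chain, differed by only 0.18 between the groups. Adm, which encodes adrenomedullin, differed by 1.84 (limma adjusted p = 0.0489), a call lost at least in the settings where limma called 0 genes higher. With the most variable probe set, the mean of all probe sets or the Y-linked covariate, limma called 1 gene higher. Adm and Apcdd1 were therefore not both called there.

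Lists for other cell types a sort could hold gave no called gene. Cardiomyocyte markers had a median of −0.39 over 12 genes (2 higher and 10 lower; Smyd1, Tnnt2 and Nppa at the smallest p), and Isl1-lineage mesoderm markers −0.22 over 12 (5 and 7; Isl1, Osr1 and Foxc2). The median was 0.09 over 9 pharyngeal and gut endoderm markers (Shh, Sox17 and Foxa1), −0.39 over 8 visceral endoderm markers (Cubn, Ttr and Apob), −0.42 over 12 neuronal markers (Neurod4, Elavl3 and Elavl4), −0.25 over 10 primitive erythroid markers (Tal1, Ank1 and Epor) and −0.34 over 8 macrophage markers (Aif1, Coro1a and Cx3cr1). Of the genes named here, Nppa (1.16), Foxc2 (0.61), Sox17 (1.80, also an endothelial marker) and Cubn (0.79, its probe sets from −0.03 to 0.79) were higher in mutant cells. The others named were lower. At an unadjusted p under 0.05 limma found 1 higher and 3 lower cardiomyocyte, 1 and 3 Isl1-lineage, 1 and 2 gut endoderm, 1 and 1 visceral endoderm, 0 and 2 neuronal, 0 and 1 erythroid and 0 and 3 macrophage markers. Heart markers were present in both groups, with a summed signal of 12.94 to 13.23 (log2) in mutant cells and 13.16 to 13.77 in wild-type cells.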

How the data were processed

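Values were the authors' deposited log2 signals, for 45101 probe sets on each of 6 Affymetrix arrays. RNA was extracted with Trizol and amplified with a kit for small inputs, per the labels' protocols; of background correction, summarisation and normalization, the method is not stated in the labels. The log2 scale was read from the values (1.89 to 15.07). Sorted values nearly matched between arrays (largest SD at a rank 0.07), so no scaling was added; if the authors aligned the arrays, a shift of most genes was removed before deposit, and amplification adds noise.

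Gene names came from the platform annotation held by GEO, brought up to date by gene ID in RefSeq GRCm38.p6, which matched 34741 of 34945 single-gene probe sets (932 name several genes and 9160 none). The probe set with the highest mean stood for a gene. Mutant and wild-type arrays were compared with limma 3.58.1 in R 4.3.3 (lmFit, eBayes, 4 residual and 3.45 prior degrees of freedom), over 18193 genes and over 45037 probe sets, with Benjamini-Hochberg adjustment over each. All adjusted p-values come from these fits unless an exact test is named. The background is the 95th percentile of 27 bacterial controls. Alternatives were a replicate block, quantile normalization, median centring, no dim genes (dimmest 40%), other probe sets per gene, a trended robust prior, array weights, a Y-linked covariate and leaving out each array; members counted at an unadjusted p or without overlap under each were added after seeing the data. The members and lists were chosen with earlier results of these data known. All members are named, and of each other list the 3 genes with the smallest p. The number of arrays limits the precision.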

Additional observations from a re-analysis of the deposited data

How the results depend on the processing

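In all 15 alternatives 0 members were called by limma, in either direction, at the level of genes or, where tested, of probe sets. Of 148 member differences under these alternatives, 141 kept their sign; Smad6 and Smad9 were left out with the dimmest 40%. Id3 (0.02, or −0.21 to 0.16 with each array left out) was −0.036 with array weights, −0.05 without mutant replicate 1 and −0.21 without wild-type replicate 1. Smad9 (−0.02, or −0.20 to 0.14 with each array left out) was 0.18 with the Y-linked covariate (Kdm5d, Eif2s3y and Uty), 0.02 without mutant replicate 1, 0.14 without mutant replicate 3 and 0.13 without wild-type replicate 3. The Y-linked covariate moved Id3 to 0.42 (unadjusted p = 0.0357, limma), Smad6 to 0.87 and Id1 to 0.49. These values rest largely on wild-type array 1, the only wild-type array with Y-linked signal, and their cause was not tested. Another choice of probe set moved Id2 to 0.87 (most variable) or 0.51 (mean of all), Smad7 to 0.41 or 0.26, and, as the mean of all, Msx1 to 0.37 and Msx2 to 0.50. The number of members higher at an unadjusted p under 0.05 was 1 to 5. Over all genes, 12 were called higher. That count was 0 with the replicate block, 6 with median centring, 1 with the most variable probe set, 1 with the mean of all probe sets, 1 with the Y-linked covariate, and 0 to 81 with each array left out; 0 to 11 were then called lower. The block changed no member's call; same-numbered arrays did not deviate together (r = 0.05, −0.10 and −0.01), and 2 of 6 correlated best with their own number. Over all probe sets 0 were called (before adjustment 2748 were higher and 2098 lower, p under 0.05); 10 were called higher with the dimmest 40% left out, 14 higher and 1 lower with a trended robust prior, 9 higher and 1 lower with array weights, and 0 to 50 higher and 0 to 6 lower with each array left out. With 3 arrays a group, the 95% intervals of the members other than Id2 and the Msx genes include 0 in the fit over genes. In the fit over all probe sets, the interval of the brightest Id2 probe set included 0 (−0.004 to 0.60). Those of the brighter Msx1 and Msx2 probe sets, and of a dimmer Id2, a dimmer Smad7 and a dimmer Id4 probe set, did not.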
